A study of Homo sapiens with 8 samples.

Results

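The interaction of calcitriol and TGF-β1 was measured in PC-3 cells as the part of the joint response that the 2 single responses do not account for. For each gene it is the log2 level with both agents, minus the level with calcitriol alone, minus the level with TGF-β1 alone, plus the level without either. It is 0 where the log2 effects of the agents add up, which means that their folds multiply. It equals both the TGF-β1 effect with calcitriol minus the TGF-β1 effect without it and the calcitriol effect with TGF-β1 minus the calcitriol effect without it. Members were the protein-coding genes for which a feature of the array carries exactly 1 symbol. There were 17575 of them among 33616 genes with such a feature, and 14790 (84.2%) passed the filter on low values and were tested.

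PC-3 is an established line from a bone metastasis of a human prostate cancer. Cells were plated in medium with fetal bovine serum, and total RNA was hybridised to Clariom D arrays. The combination group, Cal_TGF, received both agents for 24 h, with calcitriol at 10 nM and TGF-β1 at 5 ng/mL. The Calcitriol and TGF groups received 1 agent each at the same dose and for the same 24 h. The Control group received neither agent, with no vehicle and no time named in the labels. Each group had 2 arrays, lettered A and B, from independent experiments. All values describe 1 cell line, 1 dose of each agent and 1 treatment time.

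Calcitriol is the hormonally active form of vitamin D. It binds the vitamin D receptor, a nuclear receptor that pairs with the retinoid X receptor and acts on DNA elements near target genes such as CYP24A1, whose product inactivates the hormone. TGF-β1 signals through a pair of receptor kinases that phosphorylate SMAD proteins, which enter the nucleus, induce matrix and adhesion genes and, in many epithelial cells, slow growth and loosen cell contacts. The vitamin D receptor and SMAD3 can bind each other, and the IGF-binding protein IGFBP3 is a known target of both pathways in prostate cells.

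Array medians lay between 4.33 and 4.35. Positive control features exceeded negative ones by 6.74 ± 0.051 in Cal_TGF, 6.98 ± 0.064 in Calcitriol, 6.93 ± 0.025 in TGF and 7.03 ± 0.015 in Control (difference of medians, log2, SD, n = 2 each). The same contrast of group means as for a gene gave -0.129 for that gap, so the combination arrays had the lowest signal over background. Its part in the results was not tested. The keratins KRT8 and KRT18 and the epithelial adhesion molecule EPCAM were above background on all 8 arrays, with background taken, per array, as the value that 95% of its negative controls do not exceed. KLK3 and KLK2, prostate genes that PC-3 cells are known to express weakly if at all, read between 6.64 and 7.14 and between 5.08 and 5.61 and were also above it. Markers of other cell types were mixed. Of 9 fibroblast markers with a feature, FAP, THY1 and DPT were at background on all 8 arrays, whereas the collagens COL1A1 and COL1A2 were above it on all 8, COL1A1 between 8.33 and 8.95. Of 9 leukocyte markers, CD4, CD8A and MS4A1 were at background on all arrays, and CD68, CD14 and CSF1R were above it on all, CD68 between 8.49 and 8.81. Of the endothelial markers 4 of 8, and of the neuroendocrine markers 2 of 7, were above background on all arrays. The part of such markers in the results was not tested.

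No gene passed the test for a departure of the joint response from the sum of the single log2 responses. At an adjusted p under 0.05 (limma's moderated test with Benjamini-Hochberg adjustment over 23854 genes), 0 of 14790 genes (0%) had a log2 interaction. The lowest adjusted p was 0.552. Before adjustment, 624 genes (4.22%) had a p under 0.05, of which 352 (2.38%) were above 0 and 272 (1.84%) below. The median interaction was -0.0069, which nearly equal array medians hold close to 0, so a shift common to most genes could not be seen. The 5th and 95th percentiles were -0.356 and 0.386. The lowest of all was IGFBP3 at -1.14, and the highest value was 1.33.

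These arrays bound the departure of the measured signal from additivity for most genes. Of the 14790 genes, 13711 were above background on both arrays of at least 1 group. In a group at background the level is a bound, so there the interval does not limit the size of the interaction. The median SE of the interaction was 0.181, against 0.128 for the effect of 1 agent. The 95% interval lay within a 2-fold departure in either direction for 13525 genes (91.4%) and within a 1.5-fold departure for 7727 (52.2%). A lone gene with the median SE would have had to depart by 2.28 on the log2 scale, 4.87-fold, to pass the adjusted threshold. Departures of less than that in single genes were below what the adjusted test could call at that SE.

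Additivity was also asked on the linear scale, where the increments of signal, and not the folds, add up. The expected level is then the Calcitriol level plus the TGF level minus the Control level, each as 2 raised to the deposited value, in arbitrary signal units. Again 0 of 14790 genes (0%) passed, with a lowest adjusted p of 0.883, and 606 (4.1%) had an unadjusted p under 0.05. Of those with an unadjusted p under 0.05 on either scale, 574 had it on both, 50 on the log2 scale only and 32 on the linear scale only.

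IGFBP3, whose product carries insulin-like growth factors in the circulation and around cells, had the lowest p of all genes and, by its means, a joint response below the product of its folds. It read 12.41 and 12.22 in Cal_TGF, 11.51 and 11.52 in Calcitriol, 11.77 and 11.88 in TGF, and 9.84 and 9.92 in Control. The combination arrays were above all others, the Control arrays were below all others, and no 2 groups overlapped. The TGF-β1 effect was 1.74-fold with calcitriol and 3.86-fold without it (adjusted p = 0.0331 and 0.00105), and the calcitriol effect was 1.41-fold with TGF-β1 (adjusted p = 0.52) and 3.11-fold without it (adjusted p = 0.0153).

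The interaction of IGFBP3 was -1.14 ± 0.156 (SE, n = 2 per group, 95% interval -1.51 to -0.78), with an adjusted p = 0.552. Its log2-additive level, 13.46, lay above the highest value of any feature with 1 symbol, which was 13.36 to 13.44 across arrays. In Cal_TGF, 33 such features were brighter than IGFBP3. The part of an upper limit of the signal in this shortfall was not tested. The interaction of IGFBP3 also varied little between arrays. It was -1.02 over the A arrays and -1.27 over the B arrays, and lay between -1.24 and -1.05 when any 1 array was left out. With limma's trend and robust moderation, which estimates the spread of each gene around a curve over signal level, its adjusted p was 2.69e-06, and IGFBP3 was then the single protein-coding gene called. On the linear scale the combination signal was 5098 against an expected 5610 (adjusted p = 0.988). That departure of -512 signal units was less stable than the log2 value, at -852.5 without array A and -147 without array B of Cal_TGF. In the main test IGFBP3 passed on neither scale.

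**Figure D1:**
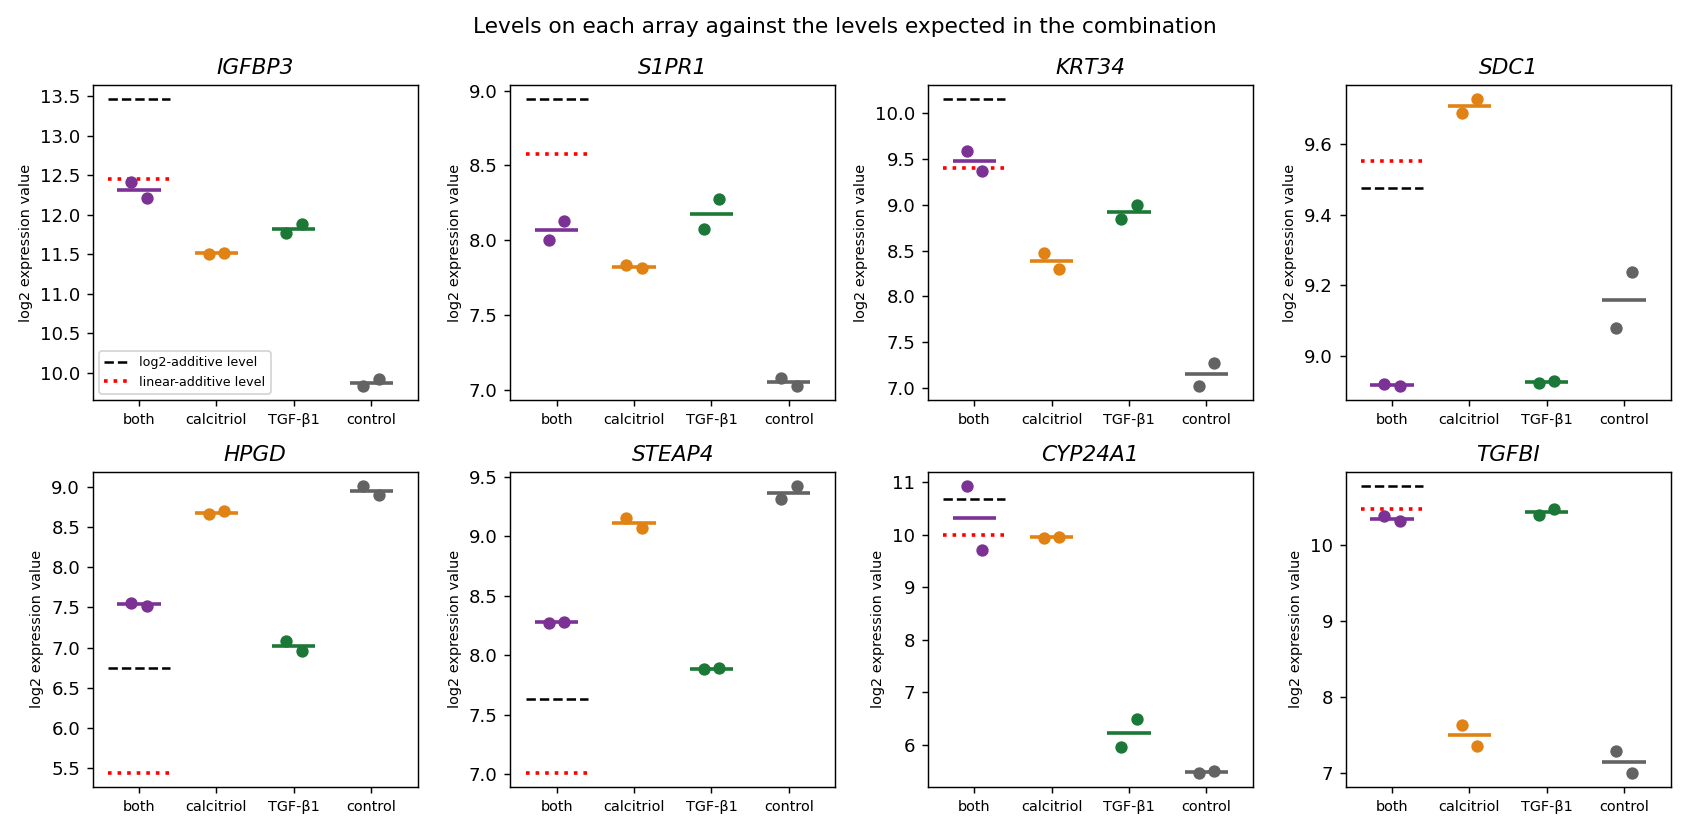
Deposited log2 expression value on each array (points) and group mean (bar) for 8 genes, with both agents, calcitriol, TGF-β1 and control from left to right, and the combination level expected from log2 additivity (dashed) and from linear additivity (dotted). IGFBP3 and KRT34 sit at the dotted level and below the dashed one, S1PR1 and SDC1 sit below both, and HPGD and STEAP4 sit above both.

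S1PR1, a receptor for the lipid sphingosine 1-phosphate, showed a joint response no greater than the TGF-β1 response. It read 8.00 and 8.13 in Cal_TGF, 7.83 and 7.81 in Calcitriol, 8.07 and 8.27 in TGF, and 7.08 and 7.03 in Control. All 6 treated arrays were above the Control arrays, and the Cal_TGF and TGF arrays overlapped. The TGF-β1 effect was 0.24 with calcitriol (log2, adjusted p = 0.359) and 1.12 without it (adjusted p = 0.0124). The interaction was -0.88 ± 0.156 (adjusted p = 0.679), and the linear signal was 268 against an expected 382 (adjusted p = 0.916), a shortfall on both scales.

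The bases upstream of 4 genes are shown because IGFBP3, S1PR1 and KRT34, a hair-type keratin, were bright genes with a joint response below log2 additivity, and HPGD, described further on, was a bright gene above it. They were chosen after their values were seen. Each run holds the 250 bases before the transcript start of the RefSeq promoter table (GRCh38.p14), at chr7:45921273-45921522 on the minus strand for IGFBP3, chr1:101236769-101237018 on the plus strand for S1PR1, chr17:41382307-41382556 on the minus strand for KRT34 and chr4:174522489-174522738 on the minus strand for HPGD. Capitals mark matches on either strand to 4 half-sites of the vitamin D receptor, namely AGGTCA and its variants AGTTCA and GGGTCA and GGTTCA, and to the SMAD half-site GTCTG.
IGFBP3: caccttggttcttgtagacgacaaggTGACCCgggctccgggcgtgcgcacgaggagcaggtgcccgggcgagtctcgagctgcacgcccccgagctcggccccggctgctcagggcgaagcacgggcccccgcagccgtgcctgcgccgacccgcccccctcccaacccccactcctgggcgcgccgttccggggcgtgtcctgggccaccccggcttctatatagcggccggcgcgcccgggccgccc
S1PR1: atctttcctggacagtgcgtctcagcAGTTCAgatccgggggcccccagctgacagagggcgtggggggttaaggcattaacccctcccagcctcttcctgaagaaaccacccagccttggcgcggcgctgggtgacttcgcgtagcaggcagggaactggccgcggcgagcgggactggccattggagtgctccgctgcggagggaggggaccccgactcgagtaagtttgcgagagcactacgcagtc
KRT34: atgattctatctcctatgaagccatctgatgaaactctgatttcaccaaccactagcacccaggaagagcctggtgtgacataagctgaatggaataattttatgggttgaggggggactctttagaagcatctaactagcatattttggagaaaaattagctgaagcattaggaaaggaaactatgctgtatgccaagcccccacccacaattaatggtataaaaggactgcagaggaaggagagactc
HPGD: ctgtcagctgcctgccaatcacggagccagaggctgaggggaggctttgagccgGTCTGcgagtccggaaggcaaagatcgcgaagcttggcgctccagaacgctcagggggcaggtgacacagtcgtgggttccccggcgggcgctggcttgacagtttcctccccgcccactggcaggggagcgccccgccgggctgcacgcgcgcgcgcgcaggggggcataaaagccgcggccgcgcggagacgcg
IGFBP3 held 1 match to GGGTCA and S1PR1 held 1 match to AGTTCA, each starting 224 bases before the start, HPGD held 1 match to GTCTG 196 bases before it, and KRT34 held 0. The windows of 3 other genes were searched too: STEAP4 held 1 match to AGTTCA and 1 to GGGTCA as well as 1 to GTCTG, and TGFBI and SLITRK6 held 0. Over the promoter windows of 14255 protein-coding genes, which also include 50 bases after the start, the shares with a match were 11.25% for AGGTCA, 8.306% for AGTTCA, 14.02% for GGGTCA, 7.499% for GGTTCA and 43.99% for GTCTG. Matches to 2 half-sites as a direct repeat with 3 bases between them, the full element of the receptor, were found in 0.08418% of windows, and the SMAD palindrome GTCTAGAC in 0.1684%. These are matches of letters in a window and were not tested as sites.

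KRT34 had the same order of groups as IGFBP3. It read 9.59 and 9.37 in Cal_TGF, 8.47 and 8.30 in Calcitriol, 8.84 and 8.99 in TGF, and 7.03 and 7.28 in Control, with no overlap between any of the groups. The TGF-β1 effect was 1.10 with calcitriol and 1.77 without it (log2, adjusted p = 0.023 and 0.004). The interaction was -0.67 ± 0.195 (adjusted p = 0.954), while the linear signal was 713 against an expected 675 (adjusted p = 0.997). Without array A of Cal_TGF the linear departure changed sign to -14.3, so its direction is not settled.

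The immediate response genes JUNB, a subunit of the AP-1 transcription factor, and DUSP1, a phosphatase that switches off MAP kinases, had the same order of groups. JUNB read 7.32 and 7.44 in Cal_TGF, 6.92 and 6.79 in Calcitriol, 7.19 and 7.40 in TGF, and 6.23 and 6.13 in Control. Its interaction was -0.59 ± 0.167 (adjusted p = 0.954), with a linear signal of 166 against an expected 200 (adjusted p = 0.969). DUSP1 had an interaction of -0.43 ± 0.178 (adjusted p = 0.954) and a linear signal of 193 against 216 (adjusted p = 0.992). In both genes the Cal_TGF and TGF arrays overlapped, so calcitriol added no separable level on top of TGF-β1.

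SDC1, the cell surface proteoglycan syndecan-1, stood out in the Calcitriol group alone. It read 8.92 and 8.92 in Cal_TGF, 9.69 and 9.73 in Calcitriol, 8.93 and 8.93 in TGF, and 9.08 and 9.24 in Control. The Calcitriol arrays were above all others, and the Cal_TGF and TGF arrays lay side by side below Control. The TGF-β1 effect was -0.79 with calcitriol (adjusted p = 0.024) and -0.23 without it (adjusted p = 0.4), and the difference between them, -0.56 ± 0.142, had an adjusted p of 0.876. The linear signal was 484 against an expected 751 (adjusted p = 0.916). SCNN1G, the gamma subunit of the epithelial sodium channel, was also highest in Calcitriol and was chosen after its values were seen. Its interaction was -0.69 ± 0.21 (adjusted p = 0.954). It read 6.74 and 6.61 in Cal_TGF, 7.54 and 7.65 in Calcitriol, 6.34 and 6.27 in TGF, and 6.74 and 6.32 in Control. Unlike in SDC1, both Cal_TGF arrays were above both TGF arrays.

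HPGD, the enzyme that breaks down prostaglandins, was the clearest case of a TGF-β1 decrease that was smaller with calcitriol. It read 7.55 and 7.52 in Cal_TGF, 8.66 and 8.70 in Calcitriol, 7.08 and 6.95 in TGF, and 9.01 and 8.89 in Control. The groups did not overlap: the Cal_TGF arrays were above the TGF arrays, whereas the Calcitriol arrays were below the Control arrays. TGF-β1 lowered it by 1.14 with calcitriol and by 1.94 without (log2 changes of -1.14 and -1.94, adjusted p = 0.0115 and 0.00105). The interaction was 0.80 ± 0.143 (95% interval 0.46 to 1.13, adjusted p = 0.679), and the linear signal was 186 against an expected 43.6 (adjusted p = 0.916).

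STEAP4, a metalloreductase of the plasma membrane, followed the same order. It read 8.27 and 8.28 in Cal_TGF, 9.15 and 9.07 in Calcitriol, 7.88 and 7.89 in TGF, and 9.31 and 9.42 in Control, with no overlap between groups. Its TGF-β1 effect was -0.83 with calcitriol and -1.48 without it (adjusted p = 0.016 and 0.0019). The interaction was 0.65 ± 0.138 (adjusted p = 0.769), and the linear signal was 310 against an expected 129 (adjusted p = 0.925).

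HPGD and STEAP4 belonged to a group in which the TGF-β1 effect leaned 1 way. The TGF-β1 main effect is the mean of its effects with and without calcitriol. In this balanced design its estimate is uncorrelated with that of the interaction. Its p uses the same estimate of the spread as the interaction p, so genes called by it are not chosen free of that p. At an adjusted p under 0.05 the main effect called 517 of 14790 genes (3.5%), 245 higher (1.66%) and 272 lower (1.84%). Of the 16 lowered by at least 2-fold, 15 had the smaller decrease with calcitriol and 1, SH3TC2, the larger, with a median interaction of 0.372 against -0.0069 over all genes. Over all 272 lowered genes, 151 had the smaller decrease with calcitriol and 121 the larger, with a median of 0.02. The 2-fold limit was set after the values were seen and the lean was not tested. It was 13 of 16 without array B of Control or array B of TGF, and 14 or 15 without any other array.

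SPRY1, which dampens signals from growth factor receptors, read 8.05 and 8.23 in Cal_TGF, 9.60 and 9.67 in Calcitriol, 8.05 and 8.10 in TGF, and 9.90 and 9.94 in Control, for an interaction of 0.34 ± 0.148. TBXAS1, the thromboxane synthase, had 0.51 ± 0.169, and CCNA1, cyclin A1, had 0.45 ± 0.172. RDH10, a retinol dehydrogenase, had 0.35 ± 0.142, HAS3, a hyaluronan synthase, had 0.35 ± 0.204, and AGR2, a disulfide isomerase, had 0.26 ± 0.152. Of these, the last 3 were outside the rule for named genes and chosen after their values were seen. All 16 were also below Control with calcitriol alone by their means, and 10 of 16 were above TGF in the combination. In 5, both Cal_TGF arrays lay above both TGF arrays. The shares of all genes with these patterns were not counted, so the counts describe the 16 alone. Over all genes the median calcitriol effect was -0.051 without TGF-β1 and -0.058 with it. At an unadjusted interaction p under 0.05 were 6 of the 16, against 10.3% of the 517 called genes and 4.22% of all genes. None of the 16 passed adjustment. Among the 15 with the smaller decrease, APOBEC3G and SERPIND1 lay near 0, at 0.04 and 0.06, both chosen after their values were seen.

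Low signal limited part of this group. Of the 16, 13 were above background on both Cal_TGF arrays, and 12 were above it on all 8 arrays, of which 11 had the smaller decrease with calcitriol. SERPINB3 and SERPINB4, protease inhibitors with near-identical sequences that the array may not separate, had interactions of 1.06 and 0.56, but neither was above background on a Cal_TGF array. Their Cal_TGF levels are bounds, so the interaction of those genes has no measured size. TBXAS1 was above background on 1 of the 2 Cal_TGF arrays. On the linear scale 13 of 16 had an expected level above 0, and 12 of those 13 lay above it. By their means each agent alone lowered all 16, which places the linear expectation below the log2-additive level. A gene with a log2 interaction of 0 or more then lies above it in any case, so this count adds nothing to the lean. For TBXAS1, SERPINB3 and SERPINB4 the expected level was below 0, so any signal lies above it.

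**Figure D2:**
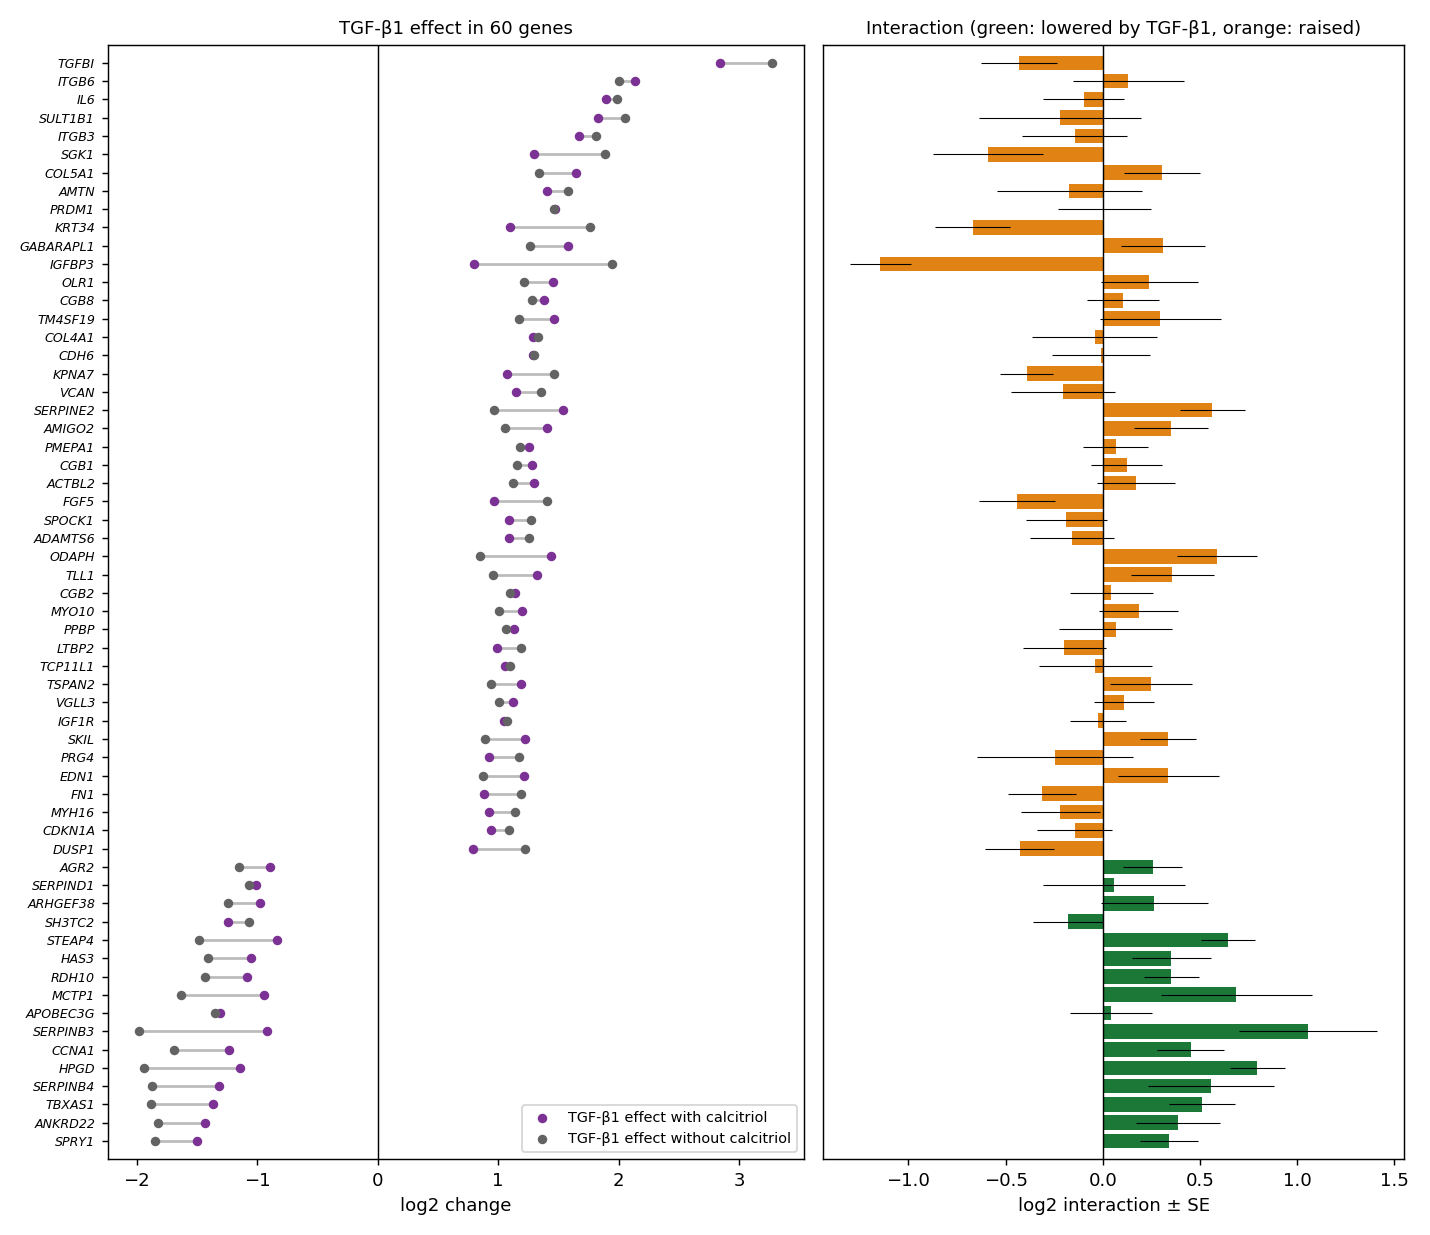
Left, TGF-β1 effect (log2 change) with calcitriol and without calcitriol for the 60 genes with an adjusted TGF-β1 main effect of at least 2-fold, ordered by its size. Right, log2 interaction with its SE. The bars of the 44 raised genes point both ways, and 15 of the 16 bars of the lowered genes point to the right.

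The genes that TGF-β1 raised showed no such lean. Of the 44 raised by at least 2-fold, 23 had the smaller increase with calcitriol and 21 the larger, with a median interaction of -0.016, and 22 lay above and 22 below the linear expectation. Low signal limits these counts too. AMTN was at background on all arrays, SULT1B1 on all but 1 TGF array and ODAPH on all but 1 Cal_TGF array. The interactions of these genes, named for their low signal, have no measured size. The count with the smaller increase was between 17 and 25 when any 1 array was left out. Over all 245 raised genes the median TGF-β1 effect was 0.600 with calcitriol and 0.607 without, and over the 272 lowered genes it was -0.510 with and -0.546 without. Leaving out 1 array gave 154 to 309 calls for the TGF-β1 main effect, with 173 and 154 without array A or B of Cal_TGF, 187 and 189 for Calcitriol, 179 and 186 for TGF, and 309 and 243 for Control. Cyclic loess scaling gave 514 calls, 334 of them higher, so the split between raised and lowered genes depends on the scaling.

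Among called genes above background on both arrays of a group, the 6 that TGF-β1 raised most had interaction intervals that included 0. This did not hold for all strongly raised genes. At an unadjusted interaction p under 0.05, 4 of the 44 raised by at least 2-fold had the smaller increase with calcitriol and 2 the larger. That p was reached by 4.22% of all genes and 10.3% of the 517 genes called for the TGF-β1 main effect. IGFBP3, KRT34 and SERPINE2 were among those of the 44, as was ODAPH, at background on all but 1 array. None passed adjustment. TGFBI, a secreted matrix protein and classical TGF-β target, read 10.37 and 10.31 in Cal_TGF, 7.64 and 7.36 in Calcitriol, 10.39 and 10.47 in TGF, and 7.30 and 7.01 in Control. The Cal_TGF and TGF arrays were high, with TGF just above Cal_TGF, and the Calcitriol and Control arrays were low, with no overlap between groups. Its TGF-β1 effect was 2.84 with calcitriol and 3.27 without it, and the interaction of -0.43 ± 0.197 had an interval of -0.89 to 0.03.

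IL6, an inflammatory cytokine, had an interaction of -0.10 ± 0.21, with an interval of -0.59 to 0.39. The integrin subunits ITGB6 and ITGB3 had 0.13 ± 0.286 and -0.14 ± 0.272, and the collagen COL5A1 had 0.30 ± 0.194. SGK1, a serum-induced kinase, had -0.59 ± 0.282, with an interval of -1.24 to 0.07. The direct SMAD targets PMEPA1 and SMAD7, which both restrain the pathway, had 0.07 ± 0.167 and 0.03 ± 0.181, and another feature of SMAD7 gave 0.26. CDKN1A, the cell cycle inhibitor p21, had -0.14 ± 0.193. All of these intervals included 0, and the signs of IL6, ITGB6, ITGB3, PMEPA1 and SMAD7 changed when 1 array was left out, as given in the closing section.

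**Figure D3:**
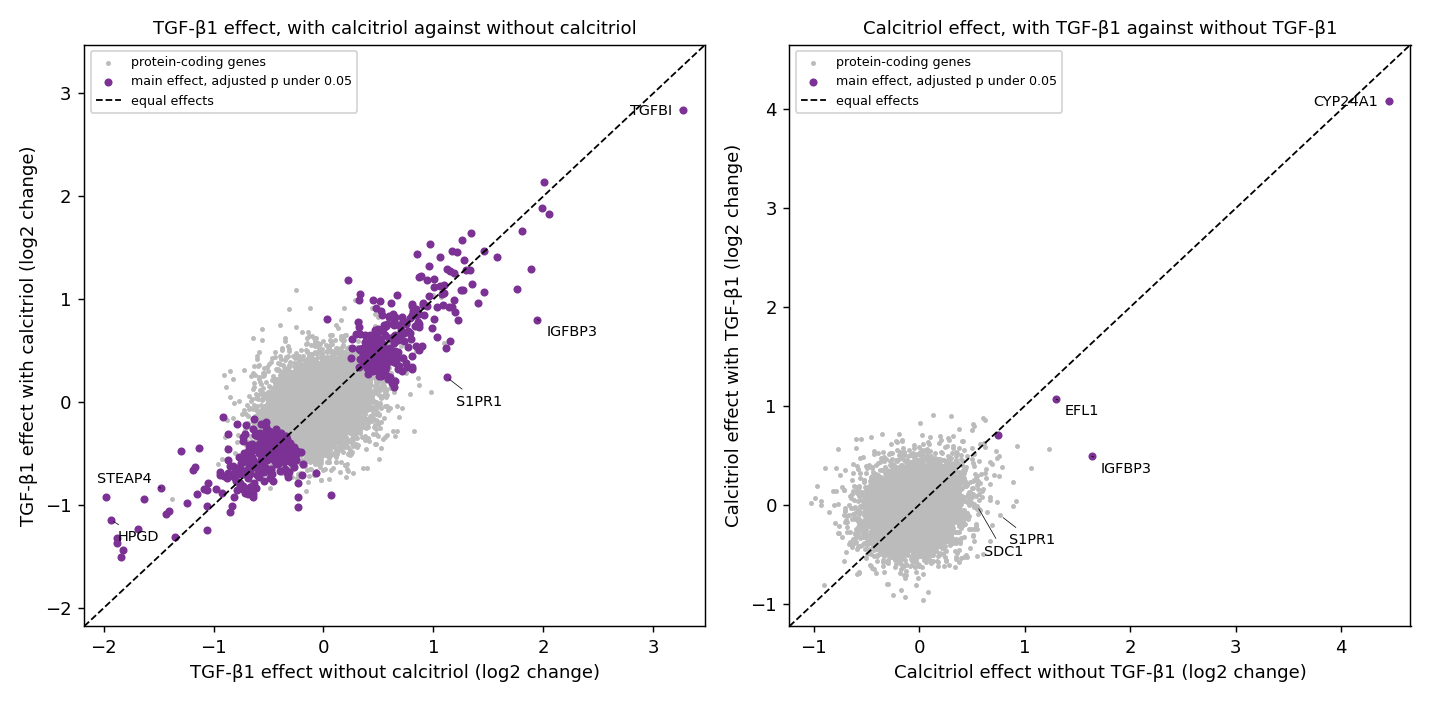
Log2 change per protein-coding gene (14790 points). Left, the TGF-β1 effect with calcitriol against the effect without it; right, the calcitriol effect with TGF-β1 against the effect without it. Purple points passed the main effect of that agent at an adjusted p under 0.05, and the dashed line marks equal effects. IGFBP3 lies below the line in both panels, and TGFBI and CYP24A1 lie near it.

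The 2 TGF-β1 effects share no array, and across the 14790 genes their correlation was r = 0.546. The 2 calcitriol effects, which also share no array, had r = 0.222. These are descriptions across genes, which are not independent replicates. Of the 517 genes called for the TGF-β1 main effect, 53 (10.3%) had an unadjusted interaction p under 0.05, against 4.22% of all genes. The main effect and the interaction use the same estimate of the spread of a gene, so a gene whose spread was estimated low is favoured in both. Of the 53, 33 had the smaller TGF-β1 effect with calcitriol and 20 the larger.

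Several of the 53 genes had the smaller TGF-β1 effect with calcitriol. MMP14, a membrane-bound matrix protease, read 9.27 and 9.47 in Cal_TGF, 9.07 and 9.04 in Calcitriol, 9.62 and 9.75 in TGF, and 8.88 and 8.87 in Control. Its groups did not overlap, with Cal_TGF below TGF, and its interaction was -0.49 ± 0.155 (adjusted p = 0.954). ITGA5, the fibronectin receptor subunit, had a TGF-β1 effect of 0.18 with calcitriol (adjusted p = 0.41) and 0.63 without it (adjusted p = 0.045), with an interaction of -0.44 ± 0.137 (adjusted p = 0.954). RHOB, a small GTPase, had -0.56 ± 0.215, NRP2, a semaphorin receptor, had -0.46 ± 0.178, and SEMA7A, a membrane-anchored semaphorin, had -0.42 ± 0.14 (adjusted p = 0.954 each). These last 3 were chosen after their values were seen.

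Other genes had the larger TGF-β1 effect with calcitriol. SERPINE2, a secreted protease inhibitor, read 9.08 and 8.82 in Cal_TGF, 7.46 and 7.37 in Calcitriol, 8.61 and 8.69 in TGF, and 7.65 and 7.71 in Control. The Cal_TGF arrays were above all others and the Calcitriol arrays below all others. TGF-β1 raised it by 1.53 with calcitriol and 0.97 without (log2, adjusted p = 0.011 and 0.023), for an interaction of 0.56 ± 0.167 (adjusted p = 0.954) and a linear signal of 495 against an expected 368 (adjusted p = 0.969). ITGAV, the integrin subunit that pairs with ITGB6 and ITGB3, had 0.31 ± 0.134. ANKRD1, a stress-responsive repeat protein, had 0.96 ± 0.262 (adjusted p = 0.953). Its Cal_TGF arrays, at 7.18 and 7.76, overlapped with its TGF arrays, at 7.40 and 7.26. SLITRK6, a neuronal membrane protein, had 0.66 ± 0.159 (adjusted p = 0.837). ANKRD1 and SLITRK6 were chosen after their values were seen.

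The calcitriol main effect called 4 of 14790 genes (0.027%), all higher: CYP24A1, EFL1, IGFBP3 and OR5P2. At an unadjusted p under 0.05 most were lower, with 320 genes higher and 1356 lower, but after cyclic loess scaling 733 were higher and 566 lower, so that balance depends on the scaling. Trend and robust moderation called 80 genes, 29 of them higher. CYP24A1 read 10.93 and 9.71 in Cal_TGF, 9.94 and 9.96 in Calcitriol, 5.96 and 6.50 in TGF, and 5.48 and 5.51 in Control. The calcitriol arrays were all far above the others, and the 2 Cal_TGF arrays differed from each other by more than the arrays of any other group. The calcitriol effect was 17.0-fold with TGF-β1 (adjusted p = 0.093) and 21.9-fold without it (adjusted p = 0.025). The interaction of -0.37 ± 0.499 had an interval of -1.53 to 0.79 and depended on the Cal_TGF arrays, at 0.24 without array B and -0.98 without array A. The departure of this gene from additivity was therefore not determined to within 2-fold.

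EFL1, which helps to assemble ribosomes and has a near-identical copy elsewhere in the genome, read 6.89 and 6.70 in Cal_TGF, 7.10 and 7.26 in Calcitriol, 5.62 and 5.84 in TGF, and 5.90 and 5.87 in Control. Its interaction was -0.23 ± 0.176, and that of OR5P2, an olfactory receptor gene, was -0.04 ± 0.137. VDR, the vitamin D receptor, read between 9.11 and 9.53 on all arrays, with an interaction of 0.04 ± 0.141 and an interval of -0.29 to 0.37. Receptor mRNA thus followed additivity to within less than 1.5-fold. The count of 4 was 1 without array A or B of Cal_TGF, without array A or B of Control or without array B of TGF, and 0 without array A or B of Calcitriol or array A of TGF.

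Only genes with a gene name and above background on both arrays of at least 1 group were ranked by p. The 8 of these with the lowest interaction p in each direction were mostly dim. Above 0 they were DNAAF19, HPGD, CYP39A1, CCSER1, GREP1, ESRRB, BDNF and SPATA46, and below 0 IGFBP3, GPR78, S1PR1, PECAM1, HTR1B, EDARADD, SOX8 and SIRT7. BDNF, a neurotrophin, had an interaction of 1.22 ± 0.234 but was at background on both Calcitriol arrays. PECAM1, an endothelial adhesion molecule, had -0.89 ± 0.172 and was at background on the Cal_TGF and the Control arrays. GPR78, an orphan receptor, had -0.97 ± 0.15 and was at background on the Cal_TGF arrays. CYP39A1 was at background on both TGF arrays and GREP1 on both Calcitriol arrays. The interactions of these 5 genes rest on a bound in at least 1 group.

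DNAAF19, a dynein assembly factor, was above background on all 8 arrays. It read 5.38 and 5.44 in Cal_TGF, 5.20 and 5.10 in Calcitriol, 5.16 and 5.17 in TGF, and 5.75 and 5.84 in Control. The Control arrays were above all others and the combination came next, for an interaction of 0.89 ± 0.139 (adjusted p = 0.552). Over all genes tested, 532 (3.6%) had TGF-β1 effects of opposite direction with and without calcitriol and no overlap between the arrays compared, as DNAAF19 did. HTR1B, a serotonin receptor, read 5.18 and 5.21 in Cal_TGF, 5.88 and 5.89 in Calcitriol, 5.66 and 5.68 in TGF, and 5.75 and 5.72 in Control. Here the combination was below all other arrays, for an interaction of -0.62 ± 0.13 (adjusted p = 0.744). Its calcitriol effects were opposite with and without TGF-β1 and free of overlap, as in 659 genes (4.46%).

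**Figure D4:**
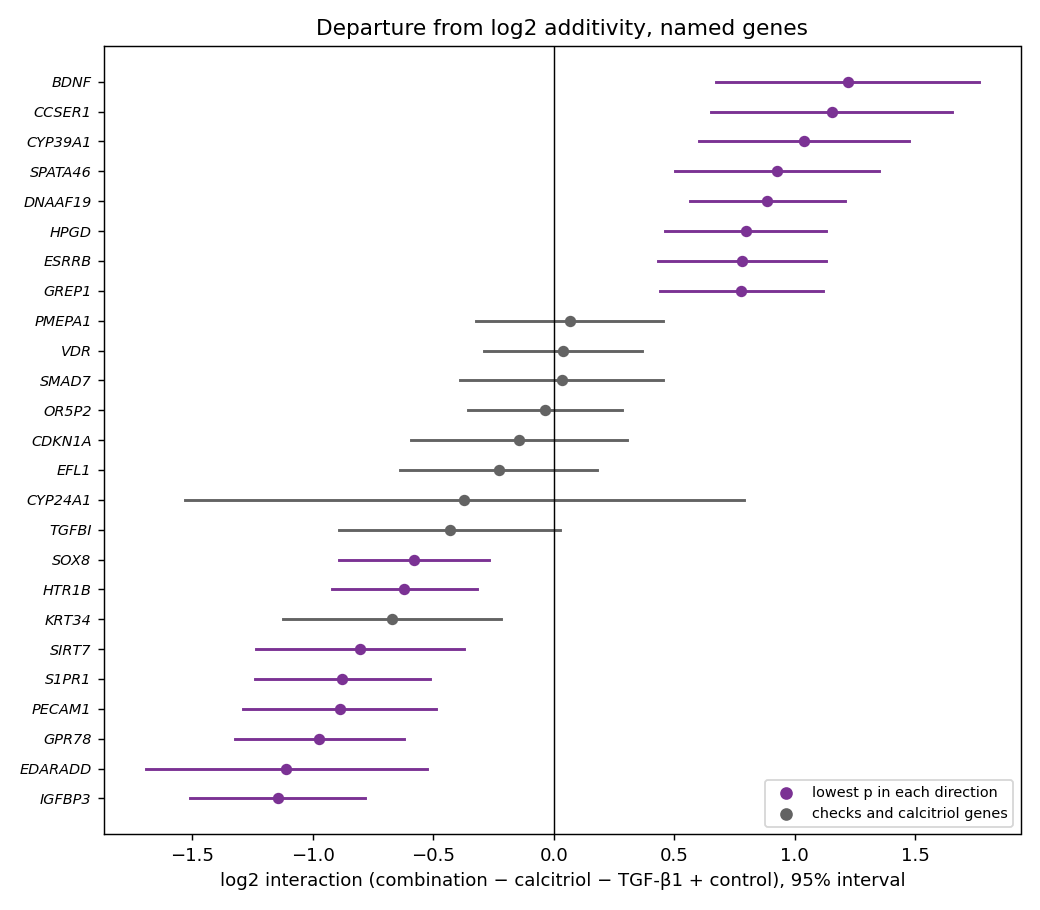
Log2 interaction with its 95% interval for the 16 genes with the lowest p (purple) and for the treatment checks and calcitriol genes (grey). The grey intervals include 0 except that of KRT34, and the interval of CYP24A1 is the widest.

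Gene lists of the pathways were then read against the background of 4.22% of genes at an unadjusted p under 0.05 and the median of -0.0069. In no list did a member pass the adjusted threshold. Of 32 tested vitamin D receptor targets, 2 (HPGD and STEAP4) were above 0 and 3 (IGFBP3, KRT34 and SERPINB1) below it at that unadjusted p, with a median of -0.08. Of 34 TGF-β and SMAD targets, 18 of which passed the TGF-β1 main effect as higher, 1 (ANGPTL4) was above 0 and 2 (JUNB and WNT5A) below it, with a median of -0.06. The interaction of WNT5A, a secreted signalling protein, was -0.61 ± 0.243 on the feature used and -0.03 on its other feature.

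The 32 components of the 2 pathways themselves, receptors and SMADs among them, had 0 members at that p, a median of -0.01 and 30 intervals within 2-fold. Collagens and matrix proteins had 0 of 24 members, with a median of -0.05. Matrix proteases and inhibitors had 2 of 25 above 0 (MMP16 and SERPINE2) and 3 below (MMP1, MMP14 and PLAUR), with a median of -0.09. Mesenchymal genes had 0 of 25 above and 3 below (VIM, ITGA5 and AXL), with a median of 0.01. VIM, the intermediate filament vimentin, read 9.95 and 10.11 in Cal_TGF, 9.90 and 9.91 in Calcitriol, 10.34 and 10.47 in TGF, and 9.84 and 9.88 in Control. Its Cal_TGF arrays lay nearer to Control than to TGF, for an interaction of -0.42 ± 0.149 (adjusted p = 0.954).

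In the prostaglandin pathway 2 of 16 members were above 0, HPGD and TBXAS1, and 0 below, with a median of 0.11. Among 30 EGFR ligands and MAPK feedback genes, 2 (EREG and SPRED1) were above and 2 (DUSP1 and DUSP5) below, and the growth factor EREG, with an interaction of 0.91 ± 0.188, was at background on both TGF arrays and on 1 array each of Cal_TGF and Calcitriol. None of the 36 genes of DNA replication and mitosis reached that p, their median was -0.04, and all 36 intervals lay within 2-fold. The 26 hypoxia and glycolysis genes, the 28 interferon-stimulated genes and the 18 genes of cholesterol and fatty acid synthesis likewise had 0 members at that p, with medians of -0.02, 0.04 and 0.06.

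**Figure D5:**
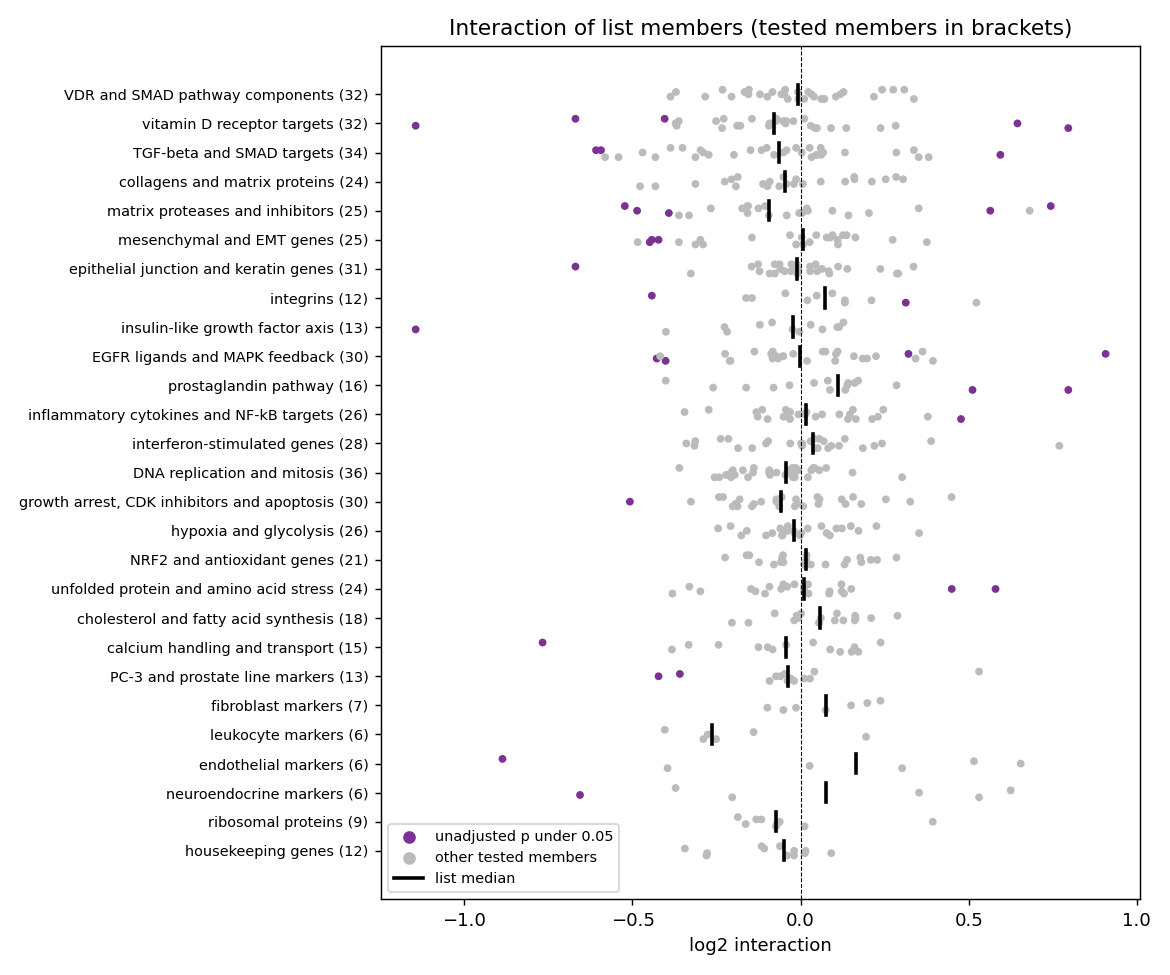
Log2 interaction of each tested member of the 27 gene lists (points) with the list median (bar). Purple marks an unadjusted p under 0.05, which 4.22% of all tested protein-coding genes reached. The medians of most lists lie near 0, and lists of 6 or 7 members scatter more widely.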

How the data were processed

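The deposited log2 expression values were used, 1 per feature and array, for 138745 features on 8 arrays. RMA, oligo and limma are named without versions in the submitters' processing notes; the log base, genome build and order of steps are not given in these sources, and base 2 is the usual output of RMA. Features were named through the platform's probe list, which gave 1 symbol to 36176 features, several to 1119 and none to 98455; 25516 Entrez identifiers matched RefSeq and 0 symbols changed.

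A feature was kept if 2 or more arrays exceeded 4.34 (50th percentile of the whole table), and the brightest feature stood for its gene; 802 protein-coding genes had several. The 4 group means were fitted jointly over 23854 genes in limma 3.58.1 (R 4.3.3), with 4 residual degrees of freedom before empirical Bayes moderation. Tests were two-sided with Benjamini-Hochberg adjustment over all genes tested, and adjusted p under 0.05 was called. The linear departure and its SE came from the same fit by the delta method. The scripts were tested on simulated data. P-values measure the spread between experiments within a group, and the number of arrays limits the precision.

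The genes named are the 8 lowest p per direction for the interaction, the 5 lowest for the linear departure, the largest called main effects, the treatment checks, and up to 3 members of each of 27 lists with an unadjusted p under 0.05; the first 3 sets required 1 group above background on both arrays. Others are marked as chosen after their values were seen. The members, lists and rule were chosen with earlier results of these data known. Alternatives covered the filter, the feature rule, cyclic loess, the genes adjusted over, the replicate letter as a block, the moderation, the linear fit and leaving out each array.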

Additional observations from a re-analysis of the deposited data

Results flagged for a closer look

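Groups of 2 arrays allow no check for outlying arrays. The genes named below were picked out because the effect of 1 agent had opposite directions with and without the other and the arrays of the compared groups did not overlap in either case. Over all genes tested this pattern was met by 532 (3.6%) for the TGF-β1 effect and by 659 (4.46%) for the calcitriol effect. The test of the difference is the log2 interaction, and in limma's moderated test none of these genes passed adjustment.

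For the TGF-β1 effect the interactions above 0 were 0.8866 in DNAAF19, 1.153 in CCSER1, 0.7789 in GREP1, 1.219 in BDNF, 0.9276 in SPATA46, 0.4496 in HSP90B1, an endoplasmic reticulum chaperone, and 0.4773 in CCL2, a chemokine. Those below 0 were -0.8867 in PECAM1, -1.109 in EDARADD, an adaptor of the ectodysplasin receptor, -0.58 in the transcription factor SOX8, -0.8029 in the sirtuin SIRT7, -0.6561 in CHGB, -0.7674 in the parathyroid hormone receptor PTH1R, -0.6085 in WNT5A and -0.4487 in the receptor kinase AXL. CHGB was above background on 1 array and PTH1R on 1 array. CCL2 was at background on both Cal_TGF and both Calcitriol arrays, so its TGF-β1 effect with calcitriol compares bounds on the calcitriol side. GREP1 and BDNF were at background on both Calcitriol arrays, and PECAM1 on the Cal_TGF and Control arrays. The directions of these 6 genes rest on dim signal. Without 1 array of Cal_TGF the interaction of AXL was -0.641 or -0.256.

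For the calcitriol effect the interactions above 0 were 0.7963 in HPGD, 1.038 in the oxysterol hydroxylase CYP39A1, 0.9073 in EREG, 0.6451 in STEAP4, 0.5643 in SERPINE2 and 0.5799 in the stress-induced transcription factor DDIT3. Those below 0 were -0.619 in HTR1B, -0.5551 in SDC1, -0.5077 in the MYC antagonist MXI1, -0.4425 in ITGA5, -0.4863 in MMP14, -0.4225 in VIM, -0.4015 in the phosphatase DUSP5 and -0.4318 in TGFBI. Some of the calcitriol effects were near 0, as in SDC1 with TGF-β1 (-0.0077) and in VIM without it (0.047), so a direction was not established there. CYP39A1 and EREG were at background on both TGF arrays, so their TGF level is a bound and the direction of their calcitriol effect with TGF-β1 rests on it.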

How the results depend on the processing

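The count of genes with a log2 interaction was 0 under 17 of 18 alternatives and 1 (IGFBP3) with trend and robust moderation, and 0 genes departed on the linear scale under any alternative. The TGF-β1 main effect called 266 genes with no filter, 910 when adjusted over protein-coding genes alone, 1934 with trend and robust moderation, 330 with no moderation and 154 to 309 without 1 array. The calcitriol main effect called 80 (29 higher) with trend and robust moderation, 0 with no moderation, 7 among protein-coding genes alone after cyclic loess, an alternative added after seeing the data, and 0 to 1 without 1 array. The median interaction lay between -0.0266 and 0.0123 without 1 array. The cause of these shifts was not tested.

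The letters A and B were not shown to pair the arrays: the deviations of A arrays correlated between groups at -0.105 to 0.104. With the letter as a replicate block, 0 interactions, 369 TGF-β1 and 1 calcitriol main effects were called.

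Signs that changed without 1 array had these ranges for the log2 interaction: -0.98 to 0.239 for CYP24A1, -0.454 to 0.165 for ITGB3, -0.286 to 0.0895 for IL6, -0.19 to 0.454 for ITGB6, -0.0636 to 0.198 for PMEPA1, -0.022 to 0.101 for VDR, -0.0848 to 0.0116 for OR5P2 and -0.0819 to 0.147 for SMAD7. For the linear departure, in signal units, they were -14.3 to 94.6 for KRT34, -33.2 to 10.3 for CDKN1A, -183 to 926 for CYP24A1, -288 to 33.8 for PMEPA1, -1.15 to 49.5 for VDR and -3.72 to 26.1 for SMAD7. The log2 interaction kept its sign but moved by over 1.5 times for AXL (-0.641 to -0.256), WNT5A (-0.817 to -0.4), ANGPTL4 (0.388 to 0.801), SGK1 (-0.823 to -0.355), COL5A1 (0.185 to 0.425), EFL1 (-0.337 to -0.12), CDKN1A (-0.278 to -0.011), SERPINB4 (0.245 to 0.872) and ANKRD22 (0.189 to 0.589). The linear departure did so for IGFBP3 (-852.5 to -147) and OR5P2 (3.88 to 12.9). Signal at background on both arrays of at least 1 group bounds SERPINB3, SERPINB4, AMTN, SULT1B1, ODAPH, BDNF, PECAM1, GPR78, EREG, CYP39A1, GREP1, CCL2, CHGB and PTH1R. ESRRB, EDARADD and TBXAS1 were at background on 1 array of a group.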
